A study of Homo sapiens with 6 samples.

Results

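The 300 most abundant long noncoding RNA (lncRNA) genes of MDA-MB-231 cells are described here, out of 8213 lncRNA genes and 29710 genes of all kinds in the read table. They were taken by a read count alone. Of the lncRNA genes, 400 had at least 1000 reads summed over the 6 libraries, and the 300 with the most reads were kept. MDA-MB-231 is an established human line of triple-negative breast cancer. The control group was 3 libraries of cells carrying an empty vector, and the SRPK2 group was 3 libraries of cells that overexpressed FLAG-tagged SRPK2, a kinase that phosphorylates the serine- and arginine-rich splicing factors. Each group held 3 biological replicates, the libraries were paired-end and strand-specific, and neither the vector's promoter, nor the time after its delivery, nor any clonal origin is stated in the labels. Nothing in the labels says whether the replicates were separate cultures, so the p-values measure the spread between these libraries.

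A lncRNA is a transcript too long to be a small RNA and without a known protein product. Some act as RNA in the nucleus, such as NEAT1, the scaffold of paraspeckles, and MALAT1, which is retained in nuclear speckles near splicing factors. Others are read mainly for what their introns or exons hold: the small nucleolar RNA (snoRNA) host genes carry box C/D and H/ACA guide RNAs in their introns, and microRNA host genes carry microRNA hairpins. Many more start beside, or run antisense to, a protein-coding gene.

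The libraries held 31140537 to 36908878 reads in genes. SRPK2 was at 38.6 ± 2.27 CPM (reads scaled to a common library size with TMM, a factor that sets most genes level; SD, n = 3) in the control and 252 ± 41.0 CPM in the SRPK2 libraries, 6.52-fold higher, as the labels require (edgeR quasi-likelihood test, adjusted p = 2.94e-08). The summed FPKM (fragments per kilobase of gene and sequencing depth) of 8 marker genes of this line, among them VIM, CD44 and AXL, was 1398 to 1430 in the control and 1416 to 1460 in the SRPK2 libraries. Of 9 luminal genes set down as low or absent, PGR and FOXA1 were at or near 0, ESR1 and GRHL2 had no row in the FPKM table, and KRT19 was at 99.97 FPKM. Of 11 leukocyte, endothelial and fibroblast markers, 3 had no row in the FPKM table, and the sum of the others was 1.82 to 2.18 in the control and 2.45 to 2.53 in the SRPK2 libraries, with LUM, COL1A1 and PDGFRB higher in each SRPK2 library and PECAM1 and LYZ overlapping between groups. The part of these cells' RNA in the lncRNA results was not tested.

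The 300 genes ranged from 0.195 to 996 FPKM as means over the 6 libraries, with a median of 3.61. FPKM was at least 10 for 71 of them and under 1 for 46. Together they took 0.954%, 0.961% and 0.963% of the reads in the control libraries and 0.963%, 0.967% and 0.968% in the SRPK2 libraries. The groups did not overlap, but the step of 0.00659 percentage points turned to -0.0173 when the same sums were taken in TMM-scaled CPM. Reads were concentrated in the most abundant genes: the first 10 held 33.9% of the reads of the 300 and the first 20 held 47.0%.

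**Figure D1:**
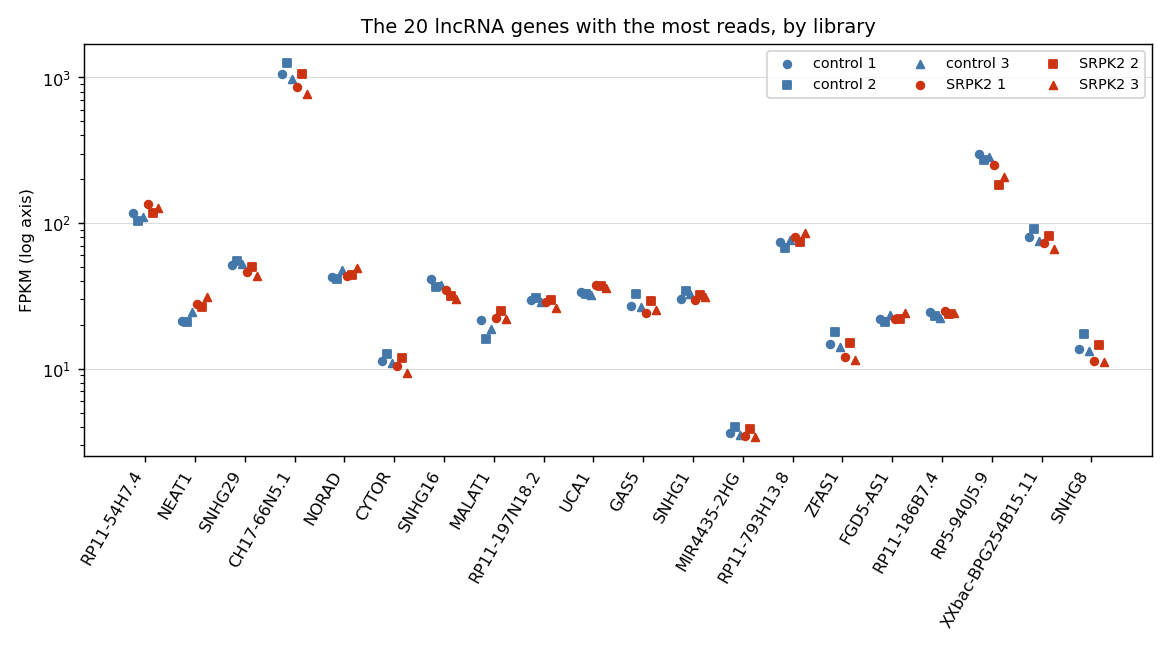
FPKM (log axis) of the 20 lncRNA genes with the most reads, in order of reads from left to right, with 1 point for each of the 3 control (blue) and 3 SRPK2 (red) libraries. Reads and FPKM rank the genes differently: CH17-66N5.1 was highest in FPKM and MIR4435-2HG lowest.

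The gene with the most reads was RP11-54H7.4 (ENSG00000275216.2), an intergenic transcript on chromosome 13. It was at 117, 104 and 111 FPKM in the control and 134, 117 and 127 FPKM in the SRPK2 libraries. The groups overlapped slightly, and the log2 fold change (SRPK2 against control) of 0.15 did not pass the test (adjusted p = 0.253). NORAD, a cytoplasmic RNA that binds the Pumilio proteins, was at 42.8, 41.2 and 47.8 FPKM in the control and 43.4, 44.1 and 48.9 in the SRPK2 libraries. Its log2 fold change was 0.01 with a standard error of 0.06. FGD5-AS1, a broadly expressed divergent transcript, was at 0.00 with a standard error of 0.05, and these were among the steadiest of the 20.

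The highest FPKM, 996, belonged to CH17-66N5.1, whose longest transcript has 312 bases. It is among the genes that share exonic bases with a protein-coding gene of the same strand. Reads of such a pair cannot be told apart over the shared bases, so this level is uncertain. The same holds for RP11-197N18.2, RP11-793H13.8, RP11-186B7.4 and XXbac-BPG254B15.11 among the 20, which share 48% to 69.8% of their exonic bases with OGFOD2, PCBP2, EIF4A1 and HSPA1B. In all, 61 of the 300 shared exonic bases with a protein-coding gene of the same strand.

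Few of these RNAs passed the test between the SRPK2 and control libraries. Of the 300, 2 rose and 4 fell at an adjusted p under 0.05, against 0.454% of the 16515 genes tested (0.381% higher and 0.0727% lower). All 300 passed the filter on low counts. The median log2 fold change was -0.03, against 0.004 over all genes tested. Within 0.1 of 0 lay 147 of the 300, against 7955 of the 16515 genes tested. Among protein-coding genes with reads in the range of the 300 it was 5964 of 9882. The SRPK2 libraries did not overlap the control libraries for 71 of the 300, 35 higher and 36 lower, which is 23.7% against 20.1% of all genes tested (11.5% higher and 8.69% lower). With edgeR, 81 of the 300 (27%) had an unadjusted p under 0.05, against 17.2% of all genes tested. Of the 9882 protein-coding genes with reads in the same range, 20.6% had such a p and 22.4% did not overlap between groups. The number depends on the fit, and edgeR without a further word means the main fit, which holds no term for the replicate number. Without the second SRPK2 library 44 of the 300 passed (8.37% of all genes then tested). Without the first SRPK2 library 8 did (0.256%), without SRPK2 replicate 3, 2 did (0.251%). Without control replicates 1, 2 and 3 in turn, 1 (0.161%), 4 (0.274%) and 2 (0.196%) passed. DESeq2 called 16 (0.896%), no filter on low counts gave 37 (3.36%) and a mean CPM of at least 5 gave 3 (0.514%). With limma on log2 FPKM, 2 passed with 1 added (0.378%), 2 with 0.1 added (0.385%) and 1 with 1 added and no filter (0.0615%).

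RP1-127C7.8 (ENSG00000286966.1), a lncRNA gene that the read table places on chromosome 1, rose more than any other. It had 192, 153 and 182 reads in the control and 322, 352 and 399 reads in the SRPK2 libraries. In TMM-scaled CPM these were 5.46, 4.71 and 4.97 against 10.3, 10.1 and 10.4. Every SRPK2 library was thus far above every control library, 2.03-fold on average (log2 fold change 1.02, SE 0.09, adjusted p = 0.000359). It passed in all 18 other settings tried, each left-out library included. With 527 reads in the control and 1073 in the SRPK2 libraries it entered the 300 through its SRPK2 level, since the lowest of the 300 had 1471 reads. Its ID is not in GENCODE 29, so its strand, exons and neighbours were not analysed here.

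FMNL1-DT (ENSG00000267121.6, chromosome 17, 45190931 to 45222222, minus strand) starts next to FMNL1, a formin that shapes the actin cytoskeleton, and runs the other way. It was at 11.5, 10.6 and 11.3 CPM in the control and 14.0, 15.1 and 15.1 CPM in the SRPK2 libraries. The groups did not overlap and the gene rose 1.32-fold (log2 fold change 0.40, SE 0.07, adjusted p = 0.0297). FMNL1 itself had a log2 fold change of 0.17 without overlap of the groups, and did not pass (adjusted p = 0.222). The call on FMNL1-DT is not firm: it was lost (adjusted p up to 0.124) whenever a library other than the second SRPK2 library was left out.

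**Figure D2:**
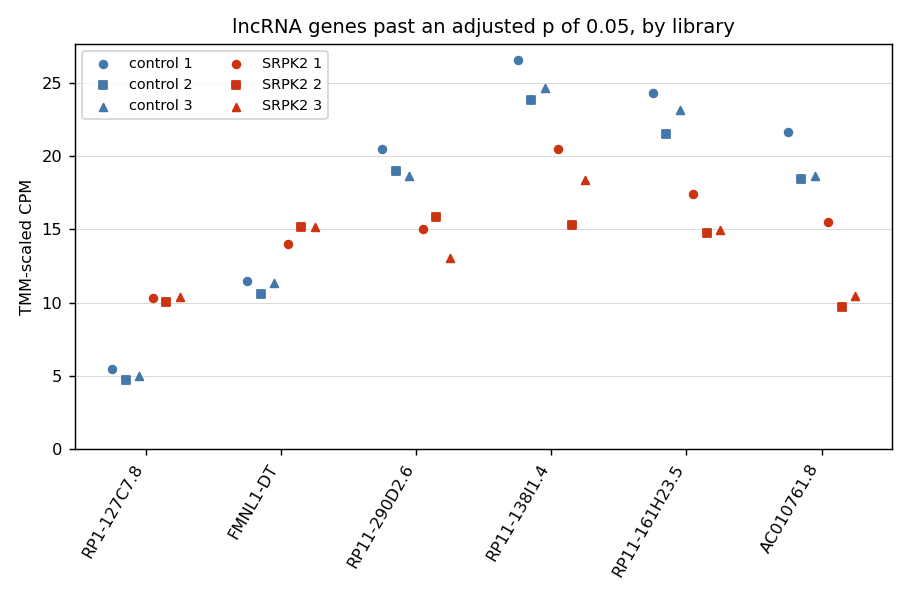
TMM-scaled CPM of the 6 lncRNA genes past an adjusted p of 0.05, with 1 point for each of the 3 control (blue) and 3 SRPK2 (red) libraries. RP1-127C7.8 was between 10.1 and 10.4 in the SRPK2 libraries and at most 5.46 in the control, and for all 6 genes the 2 groups do not overlap.

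The 4 genes that fell are all antisense to an exon of an abundant messenger RNA. RP11-161H23.5 (ENSG00000258232.2) lies across TUBA1C, an alpha-tubulin, and 97.9% of its exonic bases are antisense to exons of a protein-coding gene. RP11-138I1.4 (ENSG00000265401.1) lies within UBB, which encodes ubiquitin, and RP11-290D2.6 (ENSG00000273149.1) within TPT1, which encodes the translationally controlled tumour protein, each with all of its exonic bases antisense. AC010761.8 (ENSG00000264577.1) overlaps RPL23A, a ribosomal protein gene, with 17.2%. To show the overlap, 30 bases are printed from the middle of a shared stretch in a coding exon of the partner (GENCODE 29, GRCh38). Each lncRNA is printed 5′ to 3′ with the messenger RNA strand of the same bases beneath it, also 5′ to 3′. Capitals mark bases that both transcripts hold on opposite strands, here all 30.
RP11-161H23.5, chr12:49272932-49272961, minus strand: CAGTGGGAGGCTGGTAATTAATGCCAACCT
TUBA1C, the same bases, plus strand: AGGTTGGCATTAATTACCAGCCTCCCACTG
RP11-138I1.4, chr17:16382316-16382345, minus strand: GACCAGGTGCAGGGTCGACTCCTTCTGGAT
UBB, the same bases, plus strand: ATCCAGAAGGAGTCGACCCTGCACCTGGTC
RP11-290D2.6, chr13:45340097-45340126, plus strand: TTTCGGTACCTTCGCCCTCGGGGCCTTCAG
TPT1, the same bases, minus strand: CTGAAGGCCCCGAGGGCGAAGGTACCGAAA
RP5-940J5.9, chr12:6537875-6537904, minus strand: GACCACCTGGTGCTCAGTGTAGCCCAGGAT
GAPDH, the same bases, plus strand: ATCCTGGGCTACACTGAGCACCAGGTGGTC

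A read from such a stretch belongs to the one gene or the other by its strand alone. The libraries were strand-specific per the labels, but no source here states whether the counting used strand. Reads of the 2 strands therefore cannot be told apart with certainty.

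RP11-161H23.5 was at 24.3, 21.5 and 23.2 CPM in the control and 17.4, 14.7 and 14.9 CPM in the SRPK2 libraries. It fell without overlap of the groups (log2 fold change -0.56, SE 0.08, adjusted p = 0.00521), and lost the call without the first control library (adjusted p = 0.0698). RP11-138I1.4 was at 26.6, 23.8 and 24.7 CPM against 20.5, 15.3 and 18.3 (log2 fold change -0.47, SE 0.09, adjusted p = 0.0462). RP11-290D2.6 was at 20.5, 18.97 and 18.6 CPM against 15.04, 15.8 and 13.1 (log2 fold change -0.41, SE 0.08, adjusted p = 0.0485). In these 3 genes each SRPK2 library was below each control library. AC010761.8 fell most, from 21.6, 18.5 and 18.7 CPM to 15.5, 9.69 and 10.5 CPM (log2 fold change -0.73, SE 0.14, adjusted p = 0.043), with the first SRPK2 library nearer to the control than the other two. Without the first control library none of the 4 passed, with an adjusted p of 0.261 for AC010761.8 and 0.267 for RP11-138I1.4 and RP11-290D2.6. AC010761.8 and RP11-138I1.4 also missed the threshold without the third control or the third SRPK2 library, and RP11-290D2.6 without any library but the second SRPK2 one.

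None of the partner messenger RNAs passed the test. TUBA1C had a log2 fold change of -0.13, UBB of -0.14, TPT1 of -0.20 and RPL23A of -0.29, with adjusted p from 0.196 to 0.354. Their groups overlapped. RP5-940J5.9, antisense to GAPDH over all of its exonic bases, was the most abundant gene of this kind. It was at 140, 129 and 131 CPM in the control and 117, 84.7 and 93.0 CPM in the SRPK2 libraries, with no overlap and an adjusted p of 0.0701. GAPDH, the glycolytic enzyme gene, had a log2 fold change of -0.11.

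Of the antisense genes, 7 had at least 80% of their exonic bases antisense to exons and a partner of at least 100000 reads. Over all libraries they held between 0.771% and 2.63% of the reads of the partner. Summed over the 7, this percentage was 2.20, 1.93 and 2.23 in the control and 1.95, 1.39 and 1.77 in the SRPK2 libraries. The second SRPK2 library was the lowest of the 6 in each of the 7 pairs, and the second control library and the first SRPK2 library lay close together. For the GAPDH pair the percentage was 2.92, 2.63 and 2.99 against 2.599, 1.82 and 2.36. For the ARHGDIA pair (RP11-498C9.3) it was 2.79, 2.87 and 3.11 against 2.89, 1.85 and 2.30, so here the groups overlapped. For the VIM pair (RP11-124N14.3) it was 0.882, 0.671 and 0.912 against 0.794, 0.534 and 0.807. The percentage was without overlap, lower in the SRPK2 libraries, only for the GAPDH and TUBA1C pairs among the 7. Whether such reads come from a separate RNA or from partner fragments assigned to the other strand was not tested.

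**Figure D3:**
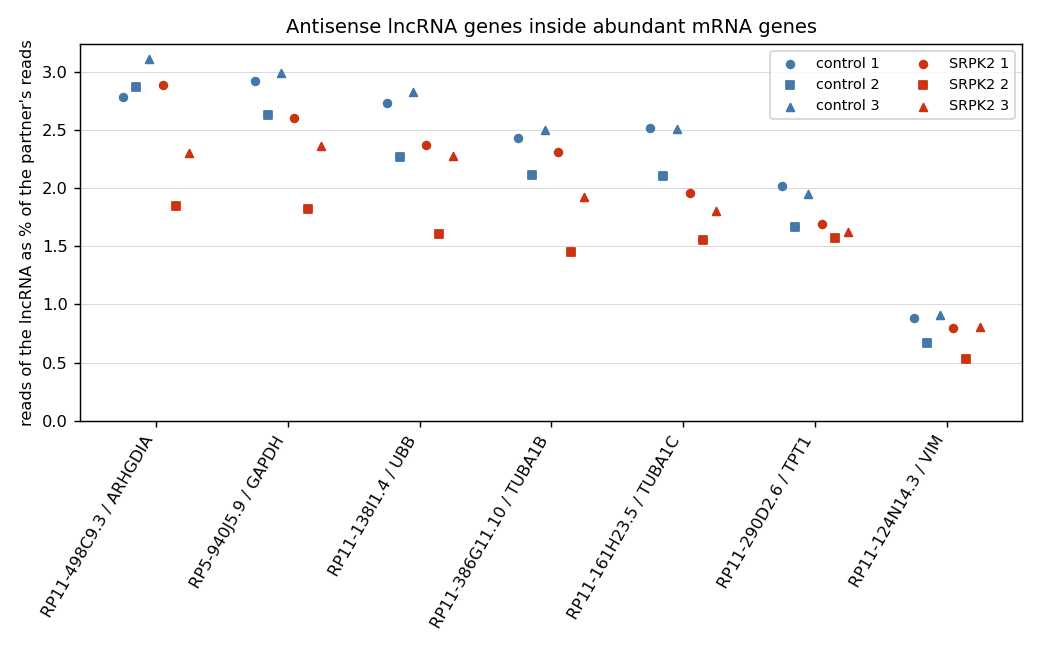
Reads of 7 antisense lncRNA genes as a percentage of the reads of the protein-coding partner in the same library, with 1 point for each of the 3 control (blue) and 3 SRPK2 (red) libraries. The second SRPK2 library (red square) is the lowest point of each pair, and for GAPDH it was 1.82% against 2.63% to 2.99% in the control.

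Of the 300, 155 had exons that overlap a protein-coding exon on either strand and 7 had no GENCODE 29 position, which leaves 138 without such overlap, a subset taken after these values were seen. None of the 138 passed with edgeR or limma-voom, DESeq2 called 6 of them (3 lower), 35 (25.4%, against 17.2% of all genes tested) had an unadjusted p under 0.05 with edgeR, and their median log2 fold change was -0.031. RP1-127C7.8, which rose, is 1 of the 7 without a position and so is not among the 138. Across the 48 antisense pairs with both genes tested, the log2 fold changes of lncRNA and partner had a Spearman correlation of 0.52. It was -0.23 over 67 divergent pairs, 0.32 over 55 same-strand pairs and 0.14 over 77 intergenic genes and their nearest coding gene. These are descriptions over pairs that share libraries, and overlapping pairs can also share reads.

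Most snoRNA host lncRNAs had values below the control, without any one passing the main test. Among the 300 were 21 of the 33 host genes listed. Of these, 19 had a negative log2 fold change, 6 were lower without overlap of the groups (8.69% of all genes tested were) and none was higher, and the median was -0.144 against 0.004 over all genes tested. None passed with the main edgeR fit or limma-voom and DESeq2 called 2, SNHG16 and DANCR, both lower. With a term for the replicate number in edgeR, SNHG29, SNHG16, DANCR, ZFAS1, GAS5 and SNHG8, among others, passed as lower. In that fit 23.6% of all genes tested passed. With edgeR, 9 (42.9%, against 17.2% of all genes tested) had an unadjusted p under 0.05, all lower. Without the second SRPK2 library 7 of the 21 passed, against 8.37% of all genes then tested. Their share of all reads was 0.162%, 0.176% and 0.161% in the control and 0.145%, 0.158% and 0.140% in the SRPK2 libraries. Each SRPK2 library was below each control library, and 3 against 3 libraries cannot give an exact permutation p under 0.1.

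SNHG29, host of SNORD49A, SNORD49B and SNORD65, was the most abundant of them. It was at 414, 448 and 412 CPM in the control and 362, 399 and 330 CPM in the SRPK2 libraries (log2 fold change -0.22, adjusted p = 0.178). SNHG16, host of SNORD1A to SNORD1C, was at 247, 222 and 219 CPM against 206, 187 and 172 (log2 fold change -0.29, adjusted p = 0.113). DANCR, host of SNORA26, was at 45.7, 51.3 and 44.7 CPM against 37.8, 41.9 and 36.8 (log2 fold change -0.28, adjusted p = 0.113). In each of these 3 genes the groups did not overlap, and the gap between them was narrow beside the spread within each group.

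ZFAS1, host of SNORD12, SNORD12B and SNORD12C, had the most negative log2 fold change of the hosts, -0.32. It was at 137, 168 and 129 CPM in the control and 110, 137 and 101 CPM in the SRPK2 libraries, so the second SRPK2 library reached into the control range (adjusted p = 0.2). GAS5, a growth-arrest transcript that is degraded when it is translated, was at 147, 180 and 140 CPM against 128, 157 and 130, with overlap. SNHG8 was at 101, 129 and 95.4 CPM against 82.2, 107 and 78.7. In all 3 the second library was the highest of its group. SNHG20 and SNHG10, which host the Cajal body RNAs SCARNA16 and SCARNA13, were the 2 hosts with a positive value, 0.11 and 0.03.

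The reads counted here are those of the host gene, not of the guide RNAs. Spliced and unspliced host RNA were not told apart. The 24 of the 300 genes that hold a snoRNA in GENCODE 29 hold 50 of them, of which 10 had a row in the read table with 230 reads in all. Of the snoRNAs named above for ZFAS1 and SNHG29, all but SNORD49B are printed from GENCODE 29 (GRCh38). They were taken as products of the most lowered and the most abundant host. Capitals mark the C box (TGATGA) near the 5′ end and the D box (CTGA) near the 3′ end, which bind the snoRNA proteins.
SNORD12, chr20:49280683-49280772, plus strand: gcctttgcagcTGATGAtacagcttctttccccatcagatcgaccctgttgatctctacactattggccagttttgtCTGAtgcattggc
SNORD12B, chr20:49280319-49280409, plus strand: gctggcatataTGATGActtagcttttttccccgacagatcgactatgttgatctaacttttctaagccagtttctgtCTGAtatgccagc
SNORD12C, chr20:49278940-49279028, plus strand: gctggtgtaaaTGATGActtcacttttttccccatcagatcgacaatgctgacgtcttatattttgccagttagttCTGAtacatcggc
SNORD49A, chr17:16440036-16440106, plus strand: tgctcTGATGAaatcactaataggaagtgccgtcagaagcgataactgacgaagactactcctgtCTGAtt
SNORD65, chr17:16441226-16441298, plus strand: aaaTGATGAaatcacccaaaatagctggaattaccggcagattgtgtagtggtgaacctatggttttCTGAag

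Ribosomal protein genes lay in the same direction, as did the medians of protein-coding snoRNA hosts and of snoRNA protein genes. All 79 ribosomal protein genes had a negative log2 fold change, with a median of -0.268, none passed with edgeR, limma-voom or DESeq2, 53 had an unadjusted p under 0.05 (edgeR; 67.1%, against 17.2% of all genes tested), and 2 did not overlap between groups (2.53%, against 20.1%). The median was -0.168 over 48 protein-coding snoRNA hosts and -0.122 over 15 genes of snoRNA proteins, with none past the edgeR test and 21 and 6 at an unadjusted p under 0.05 (43.8% and 40%, against 17.2% of all genes tested). Of the 48, 10 had a positive value, as had 1 of the 15. Many of the 48, such as RPL3 and RPS12, are ribosomal protein genes counted among the 79, and the 10 are not. NOP56 and DKC1 are among both the 48 and the 15, so these lists are not independent. DESeq2 called 1 of the 48. The spread within groups was wide. The library medians of the hosts, as deviations from each gene's mean log2 CPM, were 0.020, 0.176 and -0.002 in the control and -0.097, 0.024 and -0.138 in the SRPK2 libraries. Those of the ribosomal protein genes were 0.107, 0.331 and -0.030 against -0.148, 0.102 and -0.361. In both lists the second library stood highest in its group and the groups overlapped. Each SRPK2 library was below the control library of the same number in both lists. The labels do not state a pairing by number, and the main fit holds no term for it. The hosts' median was -0.146 after a correction for gene length.

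**Figure D4:**
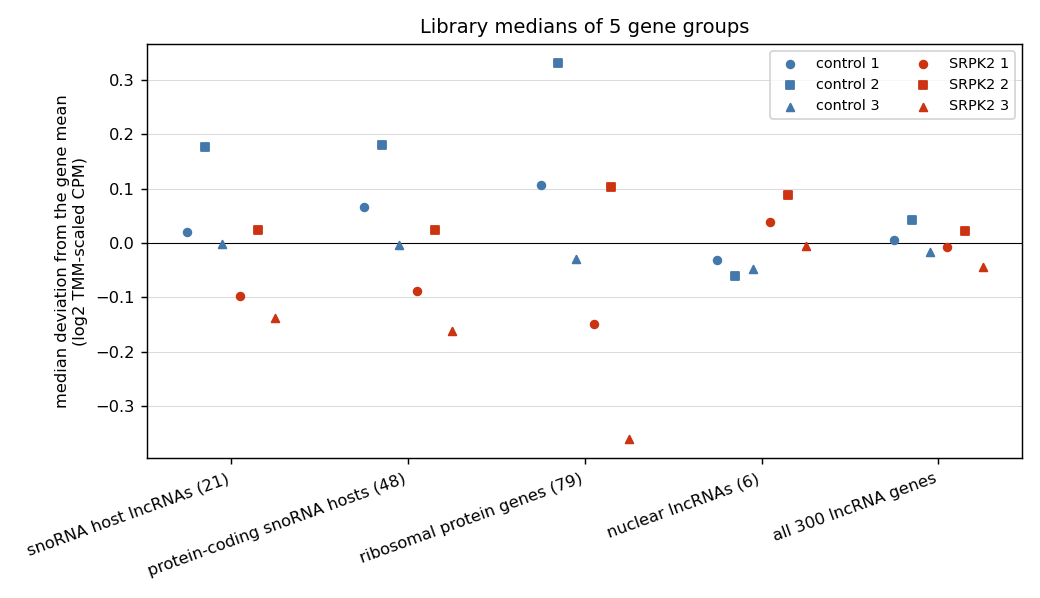
Median deviation from each gene's mean over the 6 libraries (log2 TMM-scaled CPM) in 5 gene groups, with 1 point for each of the 3 control (blue) and 3 SRPK2 (red) libraries. The second control library (blue square) is the highest point for the snoRNA hosts (0.176) and the ribosomal protein genes (0.331), and the nuclear lncRNAs are above the control in all SRPK2 libraries.

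Ribosomal protein messages begin with a C and a run of pyrimidines, the 5′ terminal oligopyrimidine tract, through which their translation follows growth signals, and several snoRNA hosts are known to begin the same way. A C followed by at least 4 pyrimidines (C or T), starting within 10 bases of the RefSeq start on the transcribed strand, was found in 12 of the 19 hosts with an entry (63.2%). It was found in 33.3% of 27305 promoters in the table, in 40.1% of the 147 of the 300 genes matched by symbol and in 88.9% of 63 ribosomal protein genes. Of the 7 members linked to interferon and NF-kB signalling that had an entry, 5 held it (71.4%), so the run was not particular to the hosts. The 60 bases around the start (30 on each side, RefSeq, GRCh38.p14) are printed for 5 hosts with the run, in capitals. They are also printed for SNHG20 and SNHG10, which have none within 10 bases of the start. Their log2 fold changes were 0.11 and 0.03. SNHG3, GAS5, EPB41L4A-AS1, SNHG1 and SNHG30 had none there either, and were at -0.14, -0.17, -0.19, -0.10 and -0.04. For each gene only the first RefSeq start in the table was searched. A run at another start would be missed, so these genes cannot be said to lack the tract. A match describes these letters only, and whether the run bears on the levels was not tested.
ZFAS1, chr20:49278612-49278671, plus strand: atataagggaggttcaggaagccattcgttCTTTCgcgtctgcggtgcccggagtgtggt
SNHG32, chr6:31834886-31834945, plus strand: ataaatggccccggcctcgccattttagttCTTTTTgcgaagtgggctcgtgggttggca
SNHG12, chr1:28581844-28581903, minus strand: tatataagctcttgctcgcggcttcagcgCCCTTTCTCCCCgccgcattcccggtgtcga
SNHG8, chr4:118278732-118278791, plus strand: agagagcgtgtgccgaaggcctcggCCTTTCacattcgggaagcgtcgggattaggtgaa
SNHG16, chr17:76557734-76557793, plus strand: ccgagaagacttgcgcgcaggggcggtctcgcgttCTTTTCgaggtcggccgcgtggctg
SNHG20, chr17:77088613-77088672, plus strand: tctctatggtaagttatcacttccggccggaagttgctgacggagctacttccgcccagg
SNHG10, chr14:95534843-95534902, minus strand: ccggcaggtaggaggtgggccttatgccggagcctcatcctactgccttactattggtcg

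ZFAS1 and SNHG32 have the run at the first base. ZFAS1 was at -0.32 (SE 0.11) and SNHG32 at -0.04 (SE 0.09) in log2 fold change, and this difference was not tested. SNHG12 was at -0.05, SNHG8 at -0.28 and SNHG16 at -0.29.

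Among the nuclear RNAs, NEAT1, MALAT1 and FTX had the positive log2 fold changes and the other 3 were slightly negative, with none past the edgeR test. NEAT1 (ENSG00000245532.9) was at 542, 537 and 614 CPM in the control and 693, 669 and 759 CPM in the SRPK2 libraries. Each SRPK2 library was above each control library, 1.25-fold on average, yet the gene did not pass the test (log2 fold change 0.33, SE 0.07, adjusted p = 0.0699). It passed without the second SRPK2 library (adjusted p = 0.0141). MALAT1 (ENSG00000251562.8) was at 213, 161 and 181 CPM against 217, 244 and 207, so the first control library lay among the SRPK2 libraries (log2 fold change 0.27, SE 0.09, adjusted p = 0.196). FTX, a long RNA of the X-inactivation centre, was at 19.4, 18.6 and 20.5 CPM against 22.6, 22.8 and 25.7 (log2 fold change 0.28, adjusted p = 0.116).

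Of the 23 nuclear lncRNAs listed, 6 were among the 300, with a median log2 fold change of 0.115 (0.073 after a correction for gene length). Of these, 3 were positive and 3 negative, 2 were higher without overlap (11.5% of all genes tested were), and none passed with edgeR (3 had an unadjusted p under 0.05, against 17.2% of all genes tested), while DESeq2 called NEAT1 alone. JPX and CHASERR, at -0.04 each, were near their control level. The 12 paraspeckle protein genes had a median of -0.031 (0.005 by library size alone), with 3 positive and 9 negative. None was past the edgeR test or at an unadjusted p under 0.05. DESeq2 called 0 of them.

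The long NEAT1 transcript of 22743 bases and MALAT1 end without a poly(A) tail, in a structure in which U-rich runs clasp an A-rich tract. The counts are per gene and do not separate the long NEAT1 transcript from shorter ones. Library preparation that selects for poly(A) is not stated here, and it would bear on how these RNAs are captured. The 120 bases that end at this tract are printed from the GENCODE 29 transcripts (GRCh38, T for U) of 22743 and 8708 bases. Capitals mark the cores of the U-rich runs and the closing GCAAAA.
NEAT1, chr11:65445421-65445540, plus strand: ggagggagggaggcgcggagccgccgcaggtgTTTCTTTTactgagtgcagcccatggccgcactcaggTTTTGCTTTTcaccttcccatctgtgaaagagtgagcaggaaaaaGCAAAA
MALAT1, chr11:65505997-65506116, plus strand: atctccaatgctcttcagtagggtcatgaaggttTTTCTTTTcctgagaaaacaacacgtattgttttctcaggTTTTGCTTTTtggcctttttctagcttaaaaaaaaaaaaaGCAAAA

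MicroRNA hosts were split. Of 35 listed, 12 were among the 300, with a median log2 fold change of 0.037. Of these, 7 were positive and 5 negative, 4 were higher and 1 lower without overlap (11.5% and 8.69% of all genes tested were), and none passed with edgeR or DESeq2. With edgeR, 3 (25%, against 17.2% of all genes tested) had an unadjusted p under 0.05, all higher. MIR100HG was at 41.7, 40.8 and 44.9 CPM in the control and 50.8, 47.98 and 52.9 CPM in the SRPK2 libraries (log2 fold change 0.25, adjusted p = 0.105). MIR503HG was at 7.37, 7.95 and 8.12 CPM against 9.23, 9.18 and 9.31 (log2 fold change 0.24, adjusted p = 0.196). In both, the lowest SRPK2 library was above the highest control library. MIR22HG (log2 fold change -0.10) was the 1 gene lower without overlap, MIR4435-2HG, with the most reads of the list, was at -0.09, and MIR23AHG at 0.12 was higher without overlap.

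LINC00472, outside the list, holds MIR30A and MIR30C2 in GENCODE 29. It was at 54.1, 56.9 and 61.6 CPM in the control and 65.3, 73.3 and 81.4 CPM in the SRPK2 libraries, with no overlap (log2 fold change 0.35, SE 0.08, adjusted p = 0.0791). Over all 25 of the 300 genes that hold a microRNA in GENCODE 29, 16 were positive and 9 negative, with a median of 0.066. These values are of host RNA, and the libraries do not measure the mature microRNAs. Mature products of 4 hosts with positive values, LINC00472, FTX, MIR100HG and MIR503HG, are printed (RefSeq, GRCh38.p14). Other hosts with positive values, such as MIR23AHG, are not shown. The products are grouped by seed, since the seed sets which messages a microRNA can pair with. Capitals mark the seed, bases 2 to 8.
hsa-miR-30a-5p (LINC00472): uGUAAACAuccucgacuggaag
hsa-miR-30c-5p (LINC00472): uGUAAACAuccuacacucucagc
hsa-miR-374b-5p (FTX): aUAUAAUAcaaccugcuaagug
hsa-miR-421 (FTX): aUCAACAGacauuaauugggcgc
hsa-miR-100-5p (MIR100HG): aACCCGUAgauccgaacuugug
hsa-miR-125b-5p (MIR100HG): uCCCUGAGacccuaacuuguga
hsa-let-7a-5p (MIR100HG): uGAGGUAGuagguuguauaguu
hsa-miR-503-5p (MIR503HG): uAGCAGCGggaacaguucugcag

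The 2 products of LINC00472 share the seed GUAAACA. The other 6 have a seed each, so the 3 microRNAs of MIR100HG come from 1 RNA with 3 different seeds.

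The lncRNAs linked to interferon and NF-kB signalling held 9 members, with a median log2 fold change of 0.066, 7 positive and 2 negative, and none past the edgeR test (2 had an unadjusted p under 0.05, 22.2% against 17.2% of all genes tested). NEAT1, the 1 gene DESeq2 called, is on this list too. LUCAT1, a stress- and interferon-induced RNA, was at 11.8, 11.9 and 11.8 CPM in the control and 13.2, 13.1 and 14.0 CPM in the SRPK2 libraries. Its groups did not overlap and its log2 fold change was 0.18 (adjusted p = 0.222). BISPR, which shares its promoter region with the antiviral gene BST2, was at 9.73, 8.87 and 9.10 CPM against 8.53, 8.35 and 8.40, lower without overlap (log2 fold change -0.13, adjusted p = 0.388). LINC02574, next to the interferon-induced IFI6, had a log2 fold change of 0.17 with overlap, and MIR222HG was at 0.07.

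LncRNAs known from tumours gave small values of both signs, over 11 members with a median log2 fold change of -0.061. None passed with edgeR or DESeq2, and 4 had an unadjusted p under 0.05 (edgeR, 3 higher and 1 lower, 36.4% against 17.2% of all genes tested). MALAT1 at 0.27 and MIR100HG at 0.25, described above under other lists, had the highest values here. UCA1, named for bladder cancer, was at 156, 154 and 147 CPM in the control and 171, 169 and 159 CPM in the SRPK2 libraries, higher without overlap (log2 fold change 0.13, adjusted p = 0.24). CYTOR was at 224, 255 and 214 CPM against 204, 233 and 177, with overlap (log2 fold change -0.17, adjusted p = 0.332). LINC00511 was at 15.5, 15.2 and 15.2 CPM against 14.3, 13.9 and 13.5, lower without overlap (log2 fold change -0.14, adjusted p = 0.281). The lists of mainly cytoplasmic RNAs (9 members, 7 negative) and of p53-linked RNAs (6 members, 3 negative) had medians of -0.169 and -0.045, and none of either passed with edgeR (3 and 1 had an unadjusted p under 0.05, 33.3% and 16.7% against 17.2% of all genes tested). DESeq2 called 1 of each, DANCR and NEAT1. Of the first, ZFAS1, DANCR, GAS5 and EPB41L4A-AS1 are also snoRNA hosts, so the lists are not independent. Of the p53-linked RNAs, LINP1 was at 0.12 and SNHG15, also a snoRNA host, at -0.18.

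Outside the lists, the highest log2 fold changes without overlap, beside the genes already described, were LINC01226 at 0.41, GUSBP11 at 0.30, LINC00342 at 0.29, RP4-555D20.2 at 0.27 and RP4-773N10.4 at 0.24. LINC01226 (652 control and 868 SRPK2 reads) and RP4-773N10.4 (678 and 805) passed the read cutoff through their SRPK2 libraries. RP4-555D20.2, an intergenic RNA on chromosome 3, was at 77.6, 79.8 and 82.8 CPM in the control and 94.9, 90.2 and 104 CPM in the SRPK2 libraries (adjusted p = 0.0858). Below the control without overlap were KB-1208A12.3 at -0.59, RP11-386G11.10 at -0.41, THBS1-IT1 at -0.32 and MIF-AS1 at -0.32. KB-1208A12.3 (951 control and 632 SRPK2 reads) passed the cutoff through its control libraries. It and RP11-386G11.10 are again antisense to RPL30 and TUBA1B. THBS1-IT1, on the strand of the thrombospondin gene THBS1 without sharing its exons, was at 24.4, 25.6 and 23.53 CPM against 19.7, 20.7 and 18.3 (adjusted p = 0.0563), while THBS1 was at -0.09. None of these passed the test.

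Longer RNAs had higher values. Over the 293 genes with a GENCODE 29 transcript, log2 fold change and the length of the longest transcript had a Spearman correlation of 0.40, and over 16331 genes of all kinds it was 0.33. The 98 genes with the shortest transcripts (312 to 1646 bases) had a median log2 fold change of -0.102 and the 98 with the longest (2955 to 22743 bases) one of 0.045. After a correction for gene length in each library these medians were -0.066 and -0.003. The 98 shortest held the 4 genes that fell, and the 98 longest held none of the 6 calls. The genes share libraries, so the correlation is a description, and the part of RNA quality or library size selection in it was not tested.

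**Figure D5:**
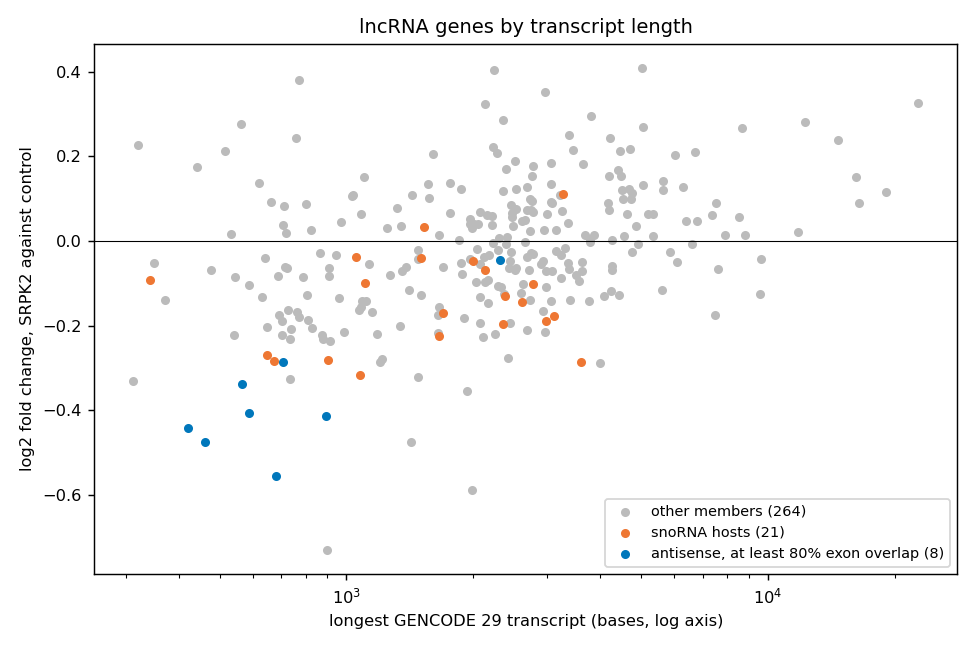
Log2 fold change (SRPK2 against control) of 293 lncRNA genes against the length of the longest GENCODE 29 transcript (bases, log axis), 1 point a gene, with the 21 snoRNA hosts in orange and the 8 genes with at least 80% antisense exon overlap in blue. The 8 blue points are all below 0 with a median of -0.409, and all but 2 of the 21 orange points are below 0.

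By position, 90 of the 300 were intergenic, with a median log2 fold change of -0.003, and 67 started within 1000 bases of a coding gene on the other strand, with a median of -0.023. The 56 with antisense exon overlap had a median of -0.068 and the 61 with same-strand overlap one of -0.029. Of the 56, 11 were lower and 6 higher without overlap, and of the 67, 6 were lower and 8 higher, where all genes tested had 8.69% lower and 11.5% higher. The read cutoff fell where genes differ little: ZNF8-DT, RP4-773N10.4 and RP11-244O19.1 were the last inside with 1499, 1483 and 1471 reads. The first 3 outside had 1469 (ZEB1-AS1), 1451 and 1450 (RP11-1149O23.3).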

How the data were processed

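Total RNA of 6 libraries (3 control, 3 SRPK2) was sequenced on a NovaSeq 6000, per the labels' protocols. Reads were handled with bcl2fastq, FastQC and HISAT2 on GRCh38, per the submitters' processing notes. Neither their versions nor the counting program, its handling of strand or the gene annotation used could be taken from labels or headers. The authors deposited whole read counts per gene (29710 genes) and FPKM values rounded by the authors to 2 decimals. Counts were tested with edgeR 4.0.16 quasi-likelihood (TMM, filterByExpr, Benjamini-Hochberg over 16515 genes holding 99.9% of reads); gene levels between genes are compared as FPKM only. The biological coefficient of variation was 5.85%. GENCODE 29 (GRCh38) gave positions for 28804 genes, 293 of the 300 among them. The test was tested on simulated data. The 300 genes, 7 lncRNA lists and 5 partner lists were chosen with earlier results of these data known. Named were genes past the threshold, the 20 with the most reads, up to 12 without overlap on each side, up to 4 plus 2 per list, and 3 on each side of the read cutoff; a few genes that this rule takes are not reported here. Alternatives covered scaling, filters, DESeq2 1.42.0, limma 3.58.1 on log2 FPKM, read cutoff, gene length, replicate block and each library left out.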

Additional observations from a re-analysis of the deposited data

How the results depend on the processing

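Of the 300 genes, 6 passed (2 higher, 4 lower). The count was 16 (5 and 11) with DESeq2, 37 (12 and 25) with no filter on low counts, 3 (2 and 1) at a mean CPM of at least 5, 2 (1 and 1) for log2 FPKM plus 1 or plus 0.1, and 1 (1 and 0) for log2 FPKM plus 1 with no filter. Library size alone gave 9 (4 and 5, with 0.63% of all genes tested), and at least 2000 reads gave 5 (1 and 4). Over the 138 genes with a GENCODE 29 position and no protein-coding exon overlap, a subset chosen after seeing the data, edgeR gave 0 (0 and 0) and DESeq2 6; the 7 genes without a position, RP1-127C7.8 among them, were left out too. Leaving out 1 library gave 1 to 44 (1 to 15 higher, 0 to 29 lower), the most without the second SRPK2 library. Nothing in the labels links same-numbered libraries beyond the number. Their deviations from the group means nevertheless correlated at 0.084, 0.230 and 0.171, each library best with its own number. Differently numbered pairs were at -0.165 to -5.48e-05. The main fit holds no term for this shared pattern. With the replicate block 97 passed (33 and 64, with 23.6% of all genes). With the block and the gene length correction 95 did (29 and 66, with 20.9% of all genes). The median log2 fold change of -0.03 became 0.006 by library size alone, 0.005 for log2 FPKM plus 0.1 and 0.003 for log2 FPKM plus 1 with or without a filter. The step in the share of reads, 0.00659 percentage points, reversed to -0.0173 in TMM-scaled CPM. The causes were not tested.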
